A study of Mus musculus with 10 samples.

Results

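A set of 10 circadian clock genes was followed in brain RNA, namely the activators Arntl and Npas2, the repressors Per1, Per2, Per3 and Ciart, the output factors Dbp and Tef, and the REV-ERB receptors Nr1d1 and Nr1d2. They were chosen by gene symbol, and all 10 were found among the 54532 genes of the count table and passed the filter on low counts that left 17665 genes for testing. The 10 mice were Slc20a2-HO animals, that is, homozygous for a knockout allele of Slc20a2, a sodium-dependent phosphate transporter gene, in this line tm1a(EUCOMM)Wtsi, and every mouse of both groups carried it. The FTY720 group (n = 6) received FTY720, also called fingolimod, a modulator of sphingosine-1-phosphate receptors, at 0.5 mg/kg by intraperitoneal injection 3 times a week in DMSO, and the placebo group (n = 4) received DMSO alone. Dosing began at the age of 1.5 months and lasted 12 weeks. The animals were kept under 12 hours of light and 12 hours of darkness and were perfused with 30 ml PBS before a part of the brain went to RNA. The hour at which each brain was taken and the strain background are not given in the sources used here, and no wild-type mouse was analysed here.

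The circadian clock is a transcriptional feedback loop that runs in nearly every cell with a period of about a day. BMAL1, the product of Arntl, pairs with CLOCK or with NPAS2, and the pair binds E-boxes in DNA and switches on the Per, Cry, Ciart, Dbp, Tef and Nr1d genes. PER and CRY proteins, and CHRONO from Ciart, then repress that pair. REV-ERBα (Nr1d1) and REV-ERBβ (Nr1d2) bind ROR elements and repress Arntl and Npas2, while DBP and TEF are PAR bZIP factors that act through D-boxes. In a rhythmic tissue the transcripts of Arntl and Npas2 therefore peak at another time of day from those of Per1, Dbp and Nr1d1. RNA from so large a part of the brain averages the suprachiasmatic nucleus, which is the master clock of the hypothalamus, with far larger regions.

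The promoters of 5 members are shown as examples of windows that hold the letters through which the loop is known to run (those of Tef, not printed, also held an E-box), and that of Nr1d2 because it was the only member whose levels did not overlap between the 2 sets of mice described below. Each window runs from 250 bases before to 50 bases after a RefSeq start site in GRCm38.p6, is printed 5′ to 3′ on the strand of the gene, and has any motif searched in capitals, of which the Nr1d2 window held none. Per1 stands at chr11:69098699-69098998 (+), Nr1d1 at chr11:98775328-98775627 (−), Ciart at chr3:95882179-95882478 (−), Per3 at chr4:151044616-151044915 (−), Arntl at chr7:113207261-113207560 (+) and Nr1d2 at chr14:18239057-18239356 (−).
Per1: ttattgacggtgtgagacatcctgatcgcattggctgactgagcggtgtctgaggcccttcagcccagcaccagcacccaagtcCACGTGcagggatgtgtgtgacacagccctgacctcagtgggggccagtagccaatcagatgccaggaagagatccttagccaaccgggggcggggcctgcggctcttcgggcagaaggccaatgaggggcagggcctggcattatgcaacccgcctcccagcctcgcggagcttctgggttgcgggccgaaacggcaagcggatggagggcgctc
Nr1d1: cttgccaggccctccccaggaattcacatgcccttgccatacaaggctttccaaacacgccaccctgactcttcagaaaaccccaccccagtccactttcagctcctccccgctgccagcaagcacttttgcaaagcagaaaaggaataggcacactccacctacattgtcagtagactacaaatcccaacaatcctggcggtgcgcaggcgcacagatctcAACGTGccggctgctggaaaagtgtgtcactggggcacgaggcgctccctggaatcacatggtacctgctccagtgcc
Ciart: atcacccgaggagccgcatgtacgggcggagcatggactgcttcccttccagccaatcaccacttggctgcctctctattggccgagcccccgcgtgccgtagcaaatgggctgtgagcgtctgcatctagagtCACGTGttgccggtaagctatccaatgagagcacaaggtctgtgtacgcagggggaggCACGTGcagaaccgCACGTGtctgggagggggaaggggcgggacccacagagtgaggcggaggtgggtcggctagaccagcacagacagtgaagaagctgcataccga
Per3: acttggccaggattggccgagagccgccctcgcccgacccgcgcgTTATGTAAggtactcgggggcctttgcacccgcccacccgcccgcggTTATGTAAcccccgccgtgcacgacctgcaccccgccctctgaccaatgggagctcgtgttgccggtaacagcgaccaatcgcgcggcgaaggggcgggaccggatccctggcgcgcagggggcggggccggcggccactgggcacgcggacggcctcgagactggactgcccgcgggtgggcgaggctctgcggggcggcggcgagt
Arntl: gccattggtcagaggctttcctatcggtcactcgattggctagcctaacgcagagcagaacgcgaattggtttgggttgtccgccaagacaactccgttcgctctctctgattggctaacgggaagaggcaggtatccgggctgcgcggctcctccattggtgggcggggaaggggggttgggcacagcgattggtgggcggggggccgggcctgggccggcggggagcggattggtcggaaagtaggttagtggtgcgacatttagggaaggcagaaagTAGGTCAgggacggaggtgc
Nr1d2: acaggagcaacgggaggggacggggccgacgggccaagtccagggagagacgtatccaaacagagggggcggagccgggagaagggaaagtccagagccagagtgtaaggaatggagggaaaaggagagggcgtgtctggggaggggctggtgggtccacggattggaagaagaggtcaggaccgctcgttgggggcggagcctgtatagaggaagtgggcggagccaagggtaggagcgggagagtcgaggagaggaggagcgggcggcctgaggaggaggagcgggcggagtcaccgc

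Ciart had 3 copies of the E-box CACGTG, which begin 116, 58 and 44 bases before the start site. Per1 had 1 such E-box, and Nr1d1 had the related CACGTT, read on the other strand as AACGTG. Per3 had 2 copies of the D-box TTANGTAA, and the Arntl window had the ROR element core TAGGTCA just after the start site. Both strands were searched over 12 windows of 9 members, Per2 having no window in the table used. The E-box was found in 4 of these 12 windows (Ciart, Per1 and both windows of Tef) and in 7.15% of all 32851 windows of that length. The shares of all windows were 4.68% for CACGTT, 2.32% for TTANGTAA and 2.61% for TAGGTCA, each of which was found in 1 of the 12 windows. The cAMP response element TGACGTCA was in none of the 12 and in 1.79% of all windows. These matches are letters in a window and say nothing of binding in these brains.

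All 10 genes were well counted, so that counting error was small beside the spread between mice. The libraries held 14772745 to 18303981 counts on genes, and the least counted member, Ciart, had 146 to 288 counts per mouse, against 5869 to 7861 for Tef. Per unit of length, Tef had the highest level at 51.1 ± 4.36 FPKM (SD, n = 10). Nr1d2 followed at 29.9 ± 7.19 FPKM and Nr1d1 at 29.5 ± 5.61 FPKM. The order of these 2 differed between sets of mice described below. The 4 mice with digit 1 in their names had 34.4 ± 5.76 FPKM of Nr1d1 and 23.7 ± 3.89 FPKM of Nr1d2, and the 6 with digit 3 had 26.2 ± 2.01 FPKM and 34.0 ± 5.67 FPKM. Dbp reached 20.1 ± 6.60 FPKM and Per1 13.9 ± 5.60 FPKM, and Npas2 had 7.20 ± 0.997 FPKM. Per3 (5.36 ± 1.19 FPKM), Ciart (5.17 ± 1.31 FPKM), Arntl (5.06 ± 0.615 FPKM) and Per2 (5.03 ± 1.40 FPKM) lay within each other's spread over all 10 mice.

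In GRCm38 the activators lie at chr7:113207465-113314126 (Arntl, +) and chr1:39193731-39363236 (Npas2, +). The PERIOD genes lie at chr11:69095217-69109960 (Per1, +), chr1:91415982-91459324 (Per2, −) and chr4:151003652-151044665 (Per3, −), and Ciart at chr3:95878503-95882251 (−). The output genes lie at chr7:45705088-45710203 (Dbp, +) and chr15:81802421-81826863 (Tef, +), and the REV-ERB genes at chr11:98767932-98775333 (Nr1d1, −) and chr14:18204054-18239127 (Nr1d2, −). Values are sums over the exons of each gene.

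The following features of the series bear on every comparison of these genes. Mouse names carry a digit after the group letter (F1-622, P3-904), which is 1 in 3 FTY720 mice and 1 placebo mouse and 3 in 3 mice of each group, and what it stands for is not given in the sources used here. The libraries separated by it along the first principal component, which held 46.8% of the variance. Although every sample is labelled brain, the cerebellar granule cell markers Gabra6 and Cbln3 were at 0.0589 to 0.240 CPM and 0.413 to 1.14 CPM in the mice with digit 1 and at 130.0 to 171.8 CPM and 251.2 to 333.8 CPM in those with digit 3. CPM are counts scaled to a common library size after TMM. Fewer cells of a type and less RNA per cell cannot be told apart in such bulk samples, and P1-623 is the only placebo mouse with digit 1. The number 612 stands in 2 names, F3-612 and P3-612, which were counted as different mice. Slc20a2 itself had 89 to 294 counts per mouse and 6.31 to 17.0 CPM, and its level cannot be checked against a wild type here.

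To ask whether FTY720 moved the clock, the 2 groups were compared for each member. None of the 10 genes differed between FTY720 and placebo mice at an adjusted p under 0.05 (edgeR quasi-likelihood test, Benjamini-Hochberg over 17665 genes), and none of the 17665 genes did (0%). At the unadjusted p under 0.05 that the study used to define differential expression, 1 member passed, Per2, against 2.61% of all genes. The 2 activators were lower and the other 8 members higher in FTY720 mice by point estimate, with a median log2 fold change of 0.18, where 49.4% of all genes were higher. The groups hold unequal shares of the name digits. With the digit as a term of the fit, Dbp was lower too and 7 members were higher, where the median log2 fold change of all genes was −0.0074. The groups overlapped for every member, as they did for all but 0.804% of genes.

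Per2, one of the PERIOD repressors, had 18.7 (P3-612), 20.5 (P1-623), 34.0 (P3-904) and 24.6 (P3-907) CPM in the placebo mice and 22.8 to 44.2 CPM, with a median of 32.8 CPM, in the FTY720 mice. In all, 3 of the 6 FTY720 mice lay above the highest placebo mouse. Its log2 fold change was 0.45 ± 0.20 (SE), with an unadjusted p of 0.0488 and an adjusted p of 0.9999 by edgeR, and 0.0810 by the exact permutation test of mean log2 CPM (two-sided, 210 splits). That call was lost when any of 7 mice (F1-624, F1-918, F3-609, F3-612, P3-612, P1-623 and P3-907) was left out, with unadjusted p-values of 0.0064 to 0.15 by edgeR over the 10 omissions. It was also lost when the name digit was a term of the fit (0.44 ± 0.21, unadjusted p of 0.0526 by edgeR).

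The other PERIOD genes and Ciart were also higher on average in FTY720 mice, without passing the test. Per1 had 46.8 (P3-612), 107.6 (P1-623), 50.1 (P3-904) and 63.7 (P3-907) CPM with placebo and 63.7 to 133.9 CPM, with a median of 65.4 CPM, with FTY720. A single placebo mouse, P1-623, and the FTY720 mice F1-624 and F1-918 stood far above the rest. The log2 fold change was 0.38 ± 0.30 and was 0.71 without P1-623 (unadjusted p = 0.0297, edgeR). Per3 had 42.5 (P3-612), 41.9 (P1-623), 58.2 (P3-904) and 47.2 (P3-907) CPM with placebo and 33.3 to 71.1 CPM with FTY720, a log2 fold change of 0.21 ± 0.19. The FTY720 mouse F1-622 had the lowest value of all, and the fold change was 0.33 without it (unadjusted p = 0.0358, edgeR) and 0.13 without F3-609. Ciart had 11.6 (P3-612), 14.9 (P1-623), 8.89 (P3-904) and 8.13 (P3-907) CPM with placebo and 8.72 to 17.0 CPM, with a mean of 12.4 ± 3.10 CPM (SD, n = 6), with FTY720, a log2 fold change of 0.19 ± 0.22 (0.07 to 0.38 over the omissions).

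Of the output factors, Tef had 384.0 (P3-612), 406.7 (P1-623), 360.9 (P3-904) and 367.4 (P3-907) CPM with placebo and 379.9 to 471.3 CPM, with a median of 425.6 CPM, with FTY720. In all, 4 of the 6 FTY720 mice were above all placebo mice. The log2 fold change was small, 0.16 ± 0.09, with p = 0.116 by edgeR and p = 0.0476 by the exact permutation test, the only member of the 10 under 0.05 in that test. The permutation p-values were not adjusted over the 10 members and took no account of the name digit. That test was not run over all genes, so no share of all genes can stand beside this value. Dbp, whose transcript cycles with a large amplitude in most tissues, gave 0.08 ± 0.27, and its sign turned (−0.11) once the name digit was a term of the fit. The REV-ERB genes gave 0.16 ± 0.16 for Nr1d1 (0.09 to 0.33 over the omissions) and 0.24 ± 0.19 for Nr1d2 (0.11 to 0.33).

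The activators had the lower point estimates in FTY720 mice. Arntl had 41.2 (P3-612), 37.6 (P1-623), 42.5 (P3-904) and 42.5 (P3-907) CPM with placebo and 32.0 to 46.2 CPM, with a median of 34.6 CPM, with FTY720. The 3 FTY720 mice with digit 1 and F3-609 lay below all placebo mice, and F3-908 above them. The log2 fold change was −0.15 ± 0.12 (p = 0.217 by edgeR, exact permutation p = 0.157). Npas2 had 30.4 (P3-612), 41.1 (P1-623), 36.5 (P3-904) and 33.8 (P3-907) CPM with placebo and 27.2 to 41.8 CPM with FTY720, a log2 fold change of −0.04 ± 0.14.

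**Figure D1:**
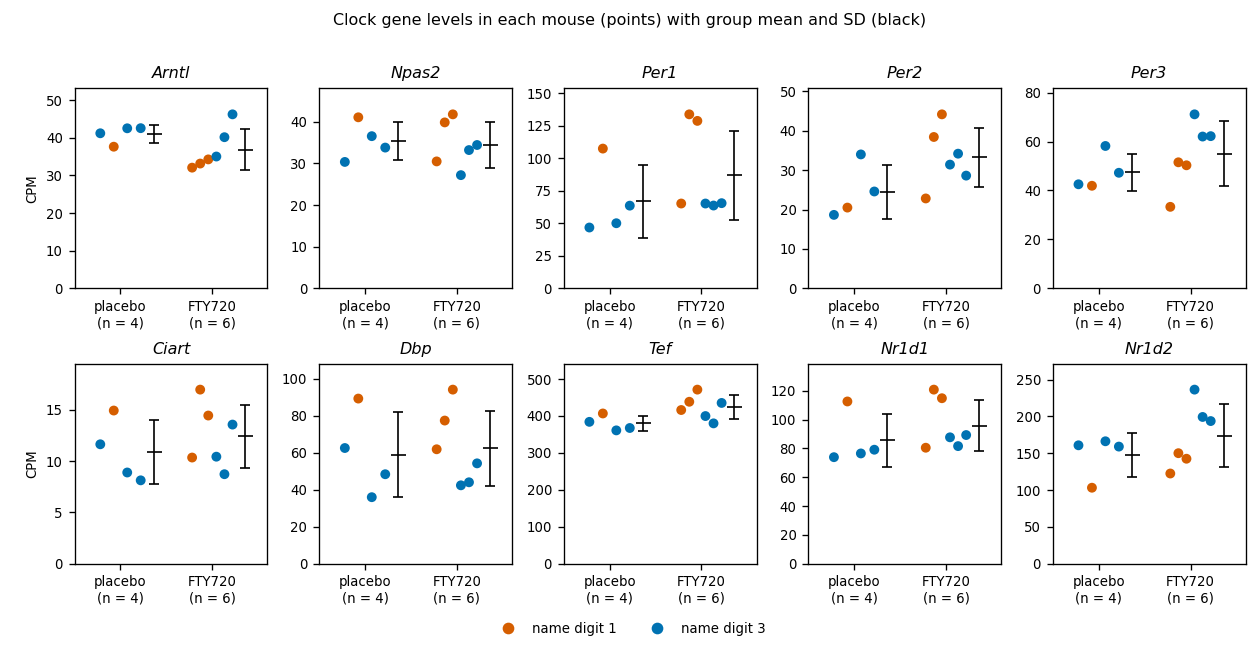
CPM of the 10 clock genes in each mouse (y axis from 0), in placebo (n = 4) and FTY720 mice (n = 6), coloured by the digit in the mouse's name; black marks are the group mean and SD. The groups overlapped for every gene, and the orange points stood low for Nr1d2 and, other than F1-622, high for Per1, Dbp and Nr1d1 in both groups.

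Since the groups hold unequal shares of the digits, the treatment was also fitted with the digit as a term. With it, Nr1d2 was higher in FTY720 mice by 0.39 on the log2 scale, with an unadjusted p of 0.0010 and an adjusted p of 0.35 by edgeR, where 12.8% of all genes had an unadjusted p under 0.05. It was the only member under 0.05 in that fit, and the fold changes of Per1 (0.19), Ciart (0.09) and Nr1d1 (0.08) were smaller there than without the term. Nr1d2 had 236.4 (F3-609), 199.3 (F3-612) and 193.7 (F3-908) CPM in the FTY720 mice with digit 3 and 160.8 (P3-612), 166.2 (P3-904) and 159.0 (P3-907) CPM in the placebo mice with digit 3. These 3 and 3 mice did not overlap, nor did they for Per1, Per3 and Nr1d1, or for 12.9% of all genes. For Per1 the margin was very small, with F3-612 at −0.216 and P3-907 at −0.218 in log2 CPM minus the mean of the gene. Among the mice with digit 1 the placebo mouse P1-623, at 103.1 CPM, lay below the 3 FTY720 mice at 122.4 to 150.0 CPM. In the 6 mice with digit 3 alone the log2 fold changes were 0.38 for Nr1d2 and 0.41 for Per3, the 2 members with an unadjusted p under 0.05 there (adjusted p = 0.654 for both, edgeR), as had 7.27% of 17656 genes. No member passed an adjusted p under 0.05 in either fit. The treatment effect did not differ detectably between the digits, since the interaction had an adjusted p of 0.9999 for all 10 members (edgeR) and unadjusted p-values of 0.28 to 0.97 (1.95% of all genes were under 0.05), with the single placebo mouse of digit 1 assumed to vary like the others.

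**Figure D2:**
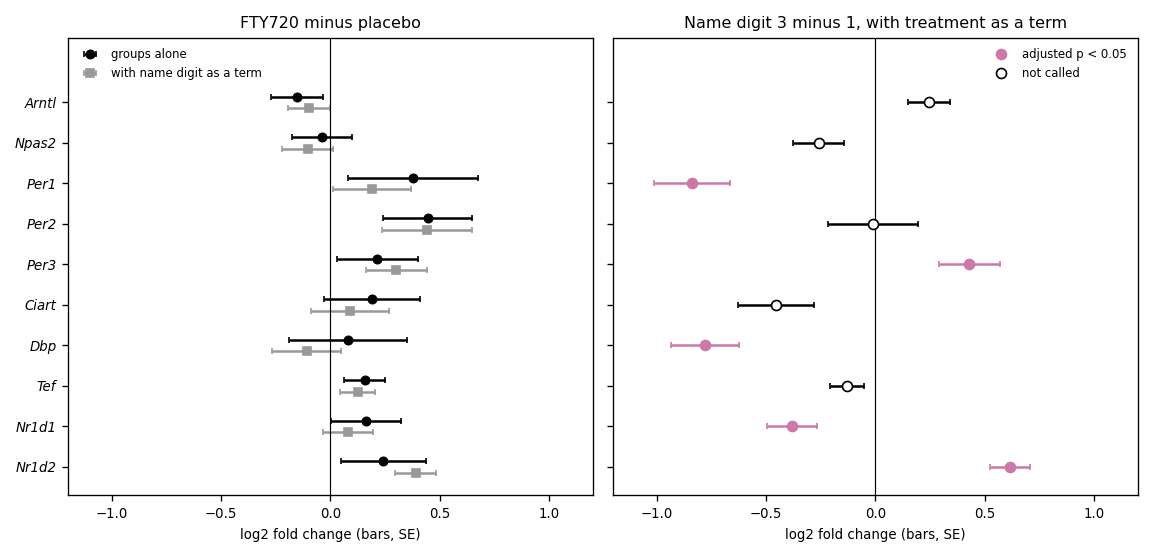
Log2 fold changes (points) and SE (bars) of the 10 clock genes, for FTY720 minus placebo without and with the name digit as a term (left), and for name digit 3 minus 1 (right; filled points have an adjusted p under 0.05). The treatment estimates lay between −0.15 and 0.45, and the digit estimates between −0.84 and 0.62.

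More of the clock genes were called for the name digit than for the treatment. A total of 5 of the 10 members differed between the mice with digit 3 and those with digit 1 at an adjusted p under 0.05, with treatment as a term, against 28.4% of all genes. Per1, Dbp and Nr1d1 were lower and Per3 and Nr1d2 higher with digit 3, where 14.4% of all genes were called lower and 13.9% higher.

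Per1 had 65.3 (F1-622), 133.9 (F1-624), 128.9 (F1-918) and 107.6 (P1-623) CPM with digit 1 and 46.8 to 65.6 CPM, with a median of 63.7 CPM, with digit 3. In all, 3 of the 4 mice with digit 1 lay far above every mouse with digit 3, and F1-622 lay at their upper end. The log2 fold change was −0.84 ± 0.17 (adjusted p = 0.0046, edgeR). Dbp had 61.8 (F1-622), 77.3 (F1-624), 94.1 (F1-918) and 89.2 (P1-623) CPM with digit 1 and 35.9 to 62.5 CPM, with a median of 46.1 CPM, with digit 3, a log2 fold change of −0.78 ± 0.16 (adjusted p = 0.0040, edgeR). The only overlap was between F1-622 and P3-612. Both calls held in all 10 omissions of a mouse, and the FTY720 mice alone, where treatment does not vary, gave −0.73 for Per1 (adjusted p = 0.0326) and −0.71 for Dbp (adjusted p = 0.0121) by edgeR.

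Nr1d1 and Nr1d2, which encode receptors of the same DNA element, went opposite ways. Nr1d1 had 80.5 (F1-622), 120.9 (F1-624), 114.9 (F1-918) and 112.7 (P1-623) CPM with digit 1 and 74.0 to 89.3 CPM, with a median of 80.4 CPM, with digit 3, a log2 fold change of −0.38 ± 0.11 (adjusted p = 0.0248, edgeR). Its call was lost without F1-624, F1-918, F3-609, F3-612 or P1-623. Nr1d2 had 122.4 (F1-622), 150.0 (F1-624), 142.5 (F1-918) and 103.1 (P1-623) CPM with digit 1 and 159.0 to 236.4 CPM, with a median of 180.0 CPM, with digit 3. It was the only member whose 2 sets of mice did not overlap, where 14.2% of all genes did not. Its log2 fold change of 0.62 ± 0.09 (adjusted p = 0.000658, edgeR) was called in all 10 omissions and in the FTY720 mice alone (0.62, adjusted p = 0.0087), where Nr1d1 gave −0.27 (adjusted p = 0.225).

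Per3 also had its higher values with digit 3, at 42.5 to 71.1 CPM with a median of 60.1 CPM, against 33.3 (F1-622), 51.5 (F1-624), 50.3 (F1-918) and 41.9 (P1-623) CPM with digit 1. The log2 fold change was 0.43 ± 0.14 (adjusted p = 0.0368, edgeR), and the call was lost in 7 of the 10 omissions (without F1-622, F1-918, F3-609, F3-612, F3-908, P1-623 or P3-907) and without treatment as a term (adjusted p = 0.103, edgeR). Per2 differed by −0.01 ± 0.21, so that the 3 PERIOD genes gave 1 lower, 1 higher and 1 near-zero estimate. The members not called were Arntl at 0.24 ± 0.10 (adjusted p = 0.0740), Ciart at −0.45 ± 0.18 (adjusted p = 0.0696), Npas2 at −0.26 ± 0.12 (adjusted p = 0.112) and Tef at −0.13 ± 0.08 (adjusted p = 0.236), all by edgeR. The leading digit of the mouse number, 6 or 9, called none of the 10 members at an adjusted p (0.0340% of all genes, 6 in number) and none at an unadjusted p under 0.05 (1.62% of all genes); DESeq2 called none at either threshold.

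Region content and acute-response genes moved with the digit, and their part in the clock gene differences was not tested. The summed level of 10 cerebellar markers was 307.8 to 379.0 CPM with digit 1 and 1467 to 1574 CPM with digit 3, with 10 of 10 called higher. The sum of 6 cortex and hippocampus markers was 1133 to 1317 CPM with digit 1 and 518.6 to 956.8 CPM with digit 3, with 4 of 6 called lower (Neurod6 not without F3-609) and 1 higher (Prox1, lost without F1-622, F1-918, F3-609, F3-612, P1-623 or P3-907). All 10 immediate early genes, which respond within minutes to neuronal activity, were called lower with digit 3, and their summed level was 604.4 to 1129 CPM against 259.1 to 561.7 CPM. Among them Fos had 23.7 to 76.5 CPM with digit 1 and 9.27 to 32.1 CPM with digit 3, and Arc had 164.6 to 244.9 CPM and 39.5 to 128.7 CPM. Without P1-623, Egr2, Fos, Ier2, Npas4 and Nr4a1 were no longer called, and calls were also lost without F1-624 (Fos, Npas4), F3-609 (Fos, Ier2, Npas4), F3-908 (Fos) or P3-907 (Npas4). Of 8 glucocorticoid-responsive genes, 1 was called lower (Fkbp5, at −0.63 ± 0.15, adjusted p = 0.0089, edgeR; 0.0697 without P1-623) and their sums overlapped, at 309.0 to 409.0 CPM against 243.3 to 350.2 CPM. Of 5 general neuron markers 1 was called lower (Tubb3, lost without F1-918 or F3-609), with sums of 3932 to 4683 CPM against 3937 to 4169 CPM. Of 6 blood and choroid plexus markers 1 was called lower (Ttr, lost without F1-622, F1-624, F3-609, F3-612, P1-623 or P3-907), with sums of 579.2 to 760.0 CPM against 420.1 to 655.2 CPM. For FTY720 over placebo all 10 cerebellar markers, all 6 blood and choroid plexus markers and 8 of 10 immediate early genes had lower point estimates, where 49.4% of all genes were higher. That fit had no digit term, and the groups hold unequal shares of the digits. Within digit 3 the cerebellar markers summed to 1503 to 1574 CPM with FTY720 and 1467 to 1515 CPM with placebo. The blood and choroid plexus markers there summed to 492.9 to 546.7 CPM and 420.1 to 655.2 CPM, and the immediate early genes to 259.1 to 413.9 CPM and 270.9 to 561.7 CPM. The only gene of these 6 lists with an unadjusted p under 0.05 was Sgk1 of the glucocorticoid list (0.42 ± 0.16, adjusted p = 0.9999, edgeR). Sgk1 was not under 0.05 without P3-612 or P3-904. The 8 genes of that list all had higher point estimates and summed to 278.2 to 409.0 CPM with FTY720 and 243.3 to 309.0 CPM with placebo. Per1 is itself known as a gene induced by glucocorticoids and by neuronal activity.

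No single order of the mice ran through all 10 members. The spread over the 10 mice, as the ratio of the highest to the lowest CPM, was 2.86 for Per1, 2.62 for Dbp, 2.37 for Per2, 2.29 for Nr1d2, 2.13 for Per3 and 2.09 for Ciart. It was 1.63 for Nr1d1, 1.54 for Npas2, 1.44 for Arntl and 1.31 for Tef, where the median of 12257 genes with a mean of at least 5 CPM was 1.68. F1-624 was above the mean of the mice in 7 of the 8 repressor and output genes and F1-918 in 6, and both were below it for Arntl. P3-907 was below the mean in all 8 and above it for Arntl. F1-622, however, was below it in 6 of the 8 and was also the lowest of all mice for Arntl, and F3-908 was the highest for Arntl with 4 of the 8 above and 4 below.

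**Figure D3:**
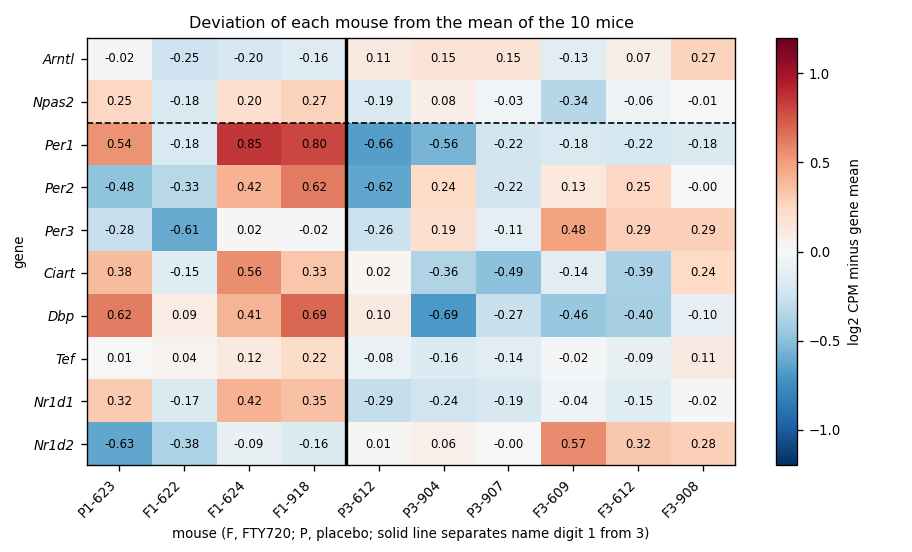
Log2 CPM of each clock gene (rows) in each mouse (columns) minus the mean of the gene over the 10 mice; red is higher and blue lower, the solid line separates the digits and the dashed line the 2 activators from the other genes. F1-624 and F1-918 are red for Per1, Per2, Ciart and Dbp and blue for Arntl, while F1-622 is blue for Arntl and for Per1 alike.

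To ask whether Arntl and Npas2 ran against their targets across mice, as they do over the day in a rhythmic tissue, the members were correlated in pairs. Over all 10 mice, 8 of the 16 pairs of an activator with a repressor or output gene had a negative Pearson r of log2 CPM, with a median r of 0.11. Arntl had a negative r with 6 of its 8 partners (−0.58 to 0.35), whereas Npas2 had a negative r with 2 of 8 (−0.57 to 0.73), and the 2 activators had r = −0.06 with each other (0.73 with the digit means removed, as below). None of the 16 pairs passed the permutation test after Benjamini-Hochberg adjustment over all 45 pairs of members, with a smallest adjusted p of 0.0635. That value belonged to positive pairs, Npas2 with Per1 and Npas2 with Nr1d1 (r = 0.73 for both). Among negative pairs the smallest adjusted permutation p was 0.216, for Arntl with Per1 and Npas2 with Nr1d2.

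Because the mice fell into 2 sets by the digit, the pairs were recomputed with the digit means removed and within the 6 mice with digit 3, the 4 with digit 1 being too few. With the digit means removed, 4 of the 16 pairs were negative with a median r of 0.23, and with the means of each treatment and digit removed, 2 of 16. In the 6 mice with digit 3, 12 of 16 were negative with a median r of −0.18, and none had an exact permutation p under 0.05 before adjustment. Arntl and Per1, the most opposed pair of Arntl, had r = −0.58 and a Spearman rho of −0.55 over 10 mice (permutation p of 0.0864 and 0.104, adjusted 0.216 and 0.238), and r = −0.81 without F1-622 and F3-908, the mice farthest from the median of Arntl. The same pair had r = 0.11 with the digit means removed (rho = −0.07, exact permutation p = 0.734) and r = −0.13 in the mice with digit 3 (rho = 0.09, exact permutation p = 0.739). For Arntl and Dbp, r changed from −0.48 (rho = −0.44, permutation p of 0.152 and 0.203, adjusted 0.298 and 0.339) to 0.43 with the digit means removed (exact permutation p = 0.245) and 0.31 in the mice with digit 3 (exact permutation p = 0.586). With the digit means removed, none of the 16 pairs had an exact permutation p under 0.05 either. The pair nearest to it was Arntl against Nr1d2, at r = −0.62 with the digit means removed (exact permutation p = 0.0693, adjusted 0.268) and −0.62 in the mice with digit 3 (exact permutation p = 0.176), but at r = 0.34 and rho = 0.47 over all 10 mice (permutation p of 0.328 and 0.179, adjusted 0.422 and 0.335).

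Among the 8 repressor and output genes, 17 of 28 pairs were positive over all mice, with a median r of 0.42. The count was 25 of 28 with the digit means removed, with a median r of 0.51. All 28 pairs come from the same 8 genes and are not independent. The share of positive pairs among other genes was not computed, so whether these counts are unusual was not tested. Per1 and Nr1d1, whose windows above hold CACGTG and the related CACGTT, had the closest levels of any 2 members, with r = 0.98 and rho = 0.96 (permutation p adjusted 0.00045 and 0.0036). Without F1-624 and F1-918, the 2 mice farthest from the median of Per1, r was 0.95. With the digit means removed it was 0.95 (exact permutation p adjusted 0.0026), the only pair of 45 to pass, and the 6 mice with digit 3 gave r = 0.85 (exact permutation p = 0.0625) and ranked both genes in the same order (rho = 1.0, exact permutation p = 0.0028, adjusted 0.125). Among 12256 other genes with a mean of at least 5 CPM, Nr1d1 was the gene most like Per1, and Per1 the gene most like Nr1d1, both over all mice and with the digit means removed.

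Per3 and Nr1d2, the members that were higher with digit 3, formed another pair, with r = 0.85 and rho = 0.87 (permutation p adjusted 0.0417 and 0.0343) and r = 0.78 without F1-622 and F3-609. This likeness was shared by many genes, since 5.37% of the 12256 others had at least that r to Per3 and 7.10% of them to Nr1d2 over all mice. It was 0.77 with the digit means removed (exact permutation p = 0.0201, adjusted 0.155) and 0.88 in the mice with digit 3 (exact permutation p = 0.0194, adjusted 0.347). The other pair whose Pearson r had an adjusted p under 0.05 over all mice was Ciart and Nr1d1, with r = 0.84 and rho = 0.75 (permutation p adjusted 0.0417 and 0.0787) and r = 0.68 without F1-624 and P1-623. Its r was 0.70 with the digit means removed (exact permutation p adjusted 0.238) and 0.40 in the mice with digit 3 (exact permutation p = 0.407). Per1 and Tef passed by rank alone, with rho = 0.88 and r = 0.76 (permutation p adjusted 0.0343 and 0.0553), and r was 0.45 without F1-624 and F1-918, 0.49 with the digit means removed (exact permutation p adjusted 0.429) and 0.46 in the mice with digit 3 (exact permutation p = 0.357). Per2 and Dbp, both E-box driven in textbooks, had r = −0.03 over all mice and −0.85 in the mice with digit 3 (exact permutation p = 0.0347, adjusted 0.347).

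**Figure D4:**
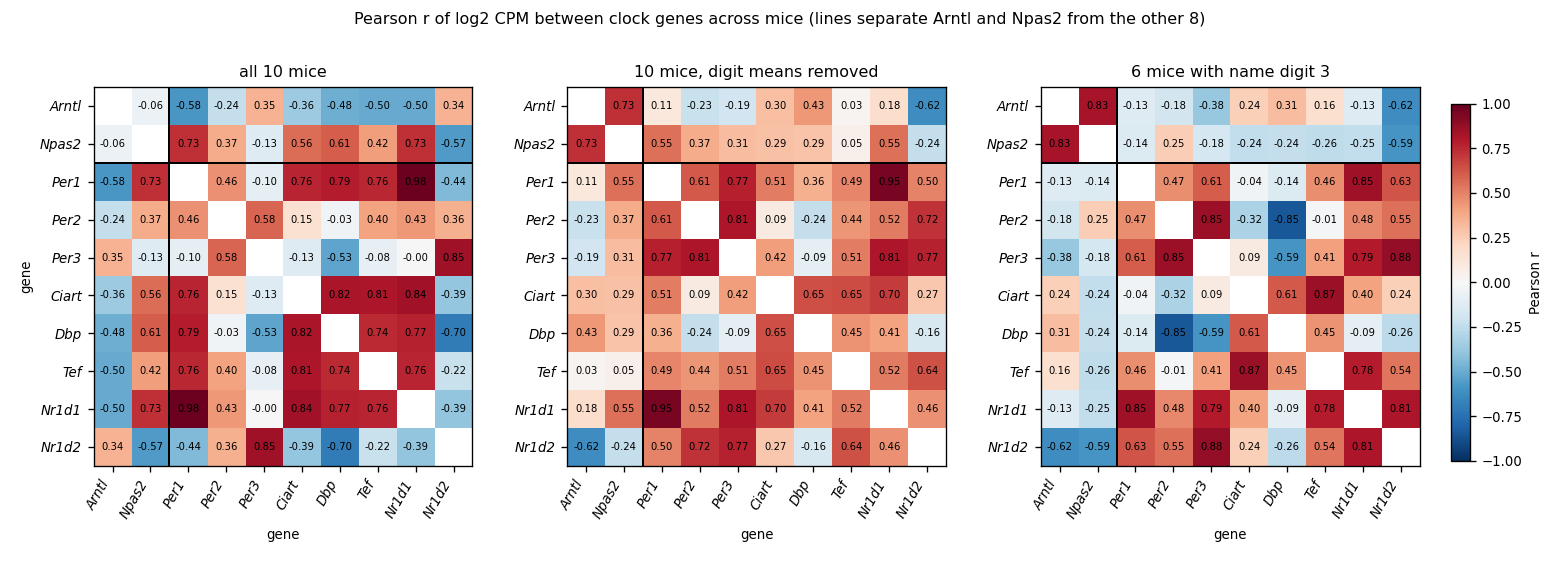
Pearson r of log2 CPM between each 2 clock genes across all 10 mice (left), with the digit means removed (middle) and in the 6 mice with digit 3 (right); red is positive, blue negative, and black lines set Arntl and Npas2 apart. The blue row of Arntl on the left is mostly red or pale in the middle, and Per1 with Nr1d1 is deep red in all 3 panels.

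The genes whose level followed Dbp most closely once the digit means were removed were not clock genes. Over the 10 mice, the highest r among 11761 protein-coding genes with a mean of at least 5 CPM was 0.95 for Rnf114, followed by Slx1b (0.94), Crebzf (0.94), Rrs1 (0.93), Ctnnd1 (0.92), Hexdc (0.90), Tmem186 (0.90), Gpatch4 (0.90), March9 (0.89) and Bex4 (0.88). The lowest were Dpp6 (−0.96), Pcdh15 (−0.95), Gabra2 (−0.93), Armh4 (−0.91) and Bbof1 (−0.91). The median over these genes was 0.01. By comparison, the best member was Ciart, with r = 0.65 to Dbp and 0.82 with the digits pooled. Pooled, several of these genes had another r to Dbp, at −0.50 for Crebzf, 0.14 for Ctnnd1, 0.089 for Tmem186, 0.0022 for Dpp6 and 0.22 for Gabra2, against 0.95 for March9 and −0.94 for Armh4. These are values at the ends of a ranking over many genes and 10 mice, and no test was run on them.

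Other genes of the pathway were read from a list, of which 26 are reported here, with 24 tested and Prok2 and Nms not. In FTY720 over placebo mice none was called at an adjusted p under 0.05 and 1 had an unadjusted p under 0.05, Bhlhe40, which encodes the E-box repressor DEC1. It had 81.6 (P3-612), 99.4 (P1-623), 75.0 (P3-904) and 79.2 (P3-907) CPM with placebo and 89.0 to 154.0 CPM, with a median of 101.9 CPM, with FTY720. In all, 3 of the 6 FTY720 mice were above the highest placebo mouse. Its log2 fold change was 0.45 ± 0.18 (unadjusted p = 0.0282, adjusted p = 0.9999, edgeR) and 0.0619 was the exact permutation p; the call was lost without F1-624, F1-918, P3-612, P3-904 or P3-907. The fold change was 0.29 with the digit as a term and 0.21 in the mice with digit 3 alone. By point estimate 21 of the 24 were higher with FTY720, with a median of 0.10, where 49.4% of all genes were higher and 2.61% had an unadjusted p under 0.05. Bhlhe41, the DEC2 gene, gave 0.09 ± 0.12.

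The digit called 3 of the 24 higher and 4 lower, where it called 13.9% and 14.4% of all genes. Clock, the partner of BMAL1, was higher with digit 3 at 84.7 to 142.4 CPM against 67.0 to 96.0 CPM with digit 1 (0.58 ± 0.14, adjusted p = 0.0095, edgeR; 0.0729 without P1-623). Rora (0.89 ± 0.15), whose product binds the same elements as the REV-ERBs and activates there, was higher, with 76.3 to 116.1 CPM with digit 1 and 118.9 to 195.3 CPM with digit 3. Wee1 (0.32 ± 0.10), a clock-controlled kinase gene, was the other. Bhlhe40 was lower (−0.52 ± 0.10), and so was Cry2 (−0.33 ± 0.11), a cryptochrome repressor, whose call was lost in 7 of 10 omissions (without F1-624, F1-918, F3-609, F3-612, P1-623, P3-904 or P3-907). The call of Wee1 was lost without F1-624, F3-609, P1-623 or P3-907.

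The neuropeptide genes Avp (−1.54 ± 0.45) and Vip (−0.56 ± 0.13), made in the suprachiasmatic nucleus and elsewhere, were lower with digit 3. Avp ranged from 6.92 to 36.5 CPM with digit 3 and from 30.5 to 77.3 CPM with digit 1, and its call was lost without F1-622, F1-918, F3-609 or F3-612. Cry1 (0.18 ± 0.18), Hlf (−0.03 ± 0.13), another PAR bZIP gene, and Nfil3 (−0.39 ± 0.14), the D-box repressor gene, were not called. Cry1 was at 42.9 CPM in F3-908 and at 21.1 to 27.6 CPM in the other mice.

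**Figure D5:**
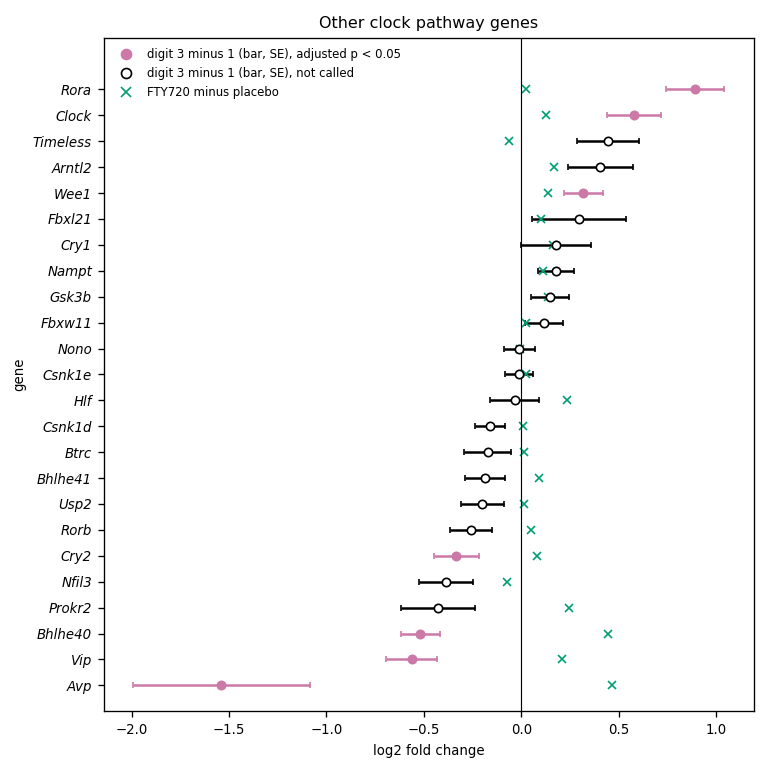
Log2 fold changes of 24 other clock pathway genes that were tested, for name digit 3 minus 1 (circles with SE bars, filled at an adjusted p under 0.05) and for FTY720 minus placebo (crosses). Rora lay farthest to the right at 0.89 and Avp farthest to the left at −1.54, and the crosses lay between −0.07 and 0.47.

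The kit used did not mark strand, and some members share exons with a gene on the opposite strand. In Nr1d1 263 of 3077 exon bases (8.55%) lie in Thra, and in Dbp 539 of 2993 (18.0%) lie in Sphk2, a sphingosine kinase gene, while 193 bases of Tef and 33 of Arntl lie in antisense RNA genes. Reads from these stretches cannot be told apart, so the values of Dbp and Nr1d1 are uncertain to that extent.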

How the data were processed

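Brain RNA of 10 mice was sequenced with paired ends after a library kit that does not mark strand. Per the labels and the study's methods, the authors called bases with CASAVA 1.8, cleaned the reads and aligned them to GRCm38 with HISAT2 2.0.5, and the submitters' processing notes also name fastp, featureCounts 1.5.0-p3 and DESeq2 1.20.0. The annotation release and strand setting are not given in the sources used here. The deposited table holds raw counts per gene and mouse, and the authors also deposited FPKM values made from them, used here for levels per length and as an alternative. The authors' own comparison columns were not used here.

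Low-count genes were removed by filterByExpr, libraries were TMM-scaled, and edgeR 4.0.16 under R 4.3.3 gave quasi-likelihood tests, with p-values adjusted by Benjamini-Hochberg over all 17665 genes. Each SE is the fold change (log2) over the root of its F statistic. Correlations used log2 CPM (prior count 2) with 100000 permutations, or exactly all 17280 orders of mice within digits and all 720 orders of the 6 mice with digit 3, adjusted over 45 pairs. Promoter windows are from RefSeq (GRCm38.p6), and shared exon bases from GENCODE M21, where the members have the same coordinates. Alternatives were DESeq2 1.42.0, limma 3.58.1 (voom, or FPKM with a pseudocount of 0.1 or 1), other scalings and filters, covariates and leaving out each mouse. The contrast of the digits in FTY720 mice alone and the interaction of treatment and digit were added after seeing the data. On simulated counts edgeR recovered 192 of 200 genes changed by 2 on the log2 scale between FTY720 and placebo, with 7 false calls among 17433 genes. The simulation gave all genes the same dispersion and held no difference between the digits. It checks that the code runs and says nothing of the power to find changes as small as those of the members.

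No 2 libraries agreed within sampling noise (chi-square per degree of freedom of 16.1 or more in 45 pairs). The study's methods name littermates but not which of these mice share a litter, so p-values measure the spread between these samples. The members and lists were chosen with earlier results of these data known. The genes named are the 10 members, the other pathway genes with an unadjusted p under 0.05 for treatment or an adjusted p under 0.05 for the digit, Clock, Cry1, Cry2, Hlf, Nfil3, Bhlhe41, the genes at the ends of the ranking by r to Dbp, 6 markers and Slc20a2. A few genes of the pathway list are not reported here. The marker lists were cerebellum, cortex and hippocampus, brain neurons, blood and choroid plexus, immediate early and glucocorticoid-responsive genes. The file's symbol 9-Mar was read as March9 through its gene ID.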

Additional observations from a re-analysis of the deposited data

Results flagged for a closer look

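The placebo mouse P1-623 stood apart from the other 3 placebo mice for both REV-ERB genes. It had the highest Nr1d1 of the placebo mice, 112.7 CPM against 74.0 to 79.1 CPM in the others, a gap of 0.866 of the group's whole range. It also had the lowest Nr1d2, 103.1 CPM against 159.0 to 166.2 CPM, a gap of 0.886 of the range. Both exceeded Dixon's 95% critical value for 4 samples, in 20 groups tested, and chance gives about 1 such group in 20. P1-623 is the only placebo mouse whose name carries the digit 1, and beside the 3 FTY720 mice with digit 1 (80.5 to 120.9 CPM of Nr1d1 and 122.4 to 150.0 CPM of Nr1d2) it lay within their range for Nr1d1 and below it for Nr1d2.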

How the results depend on the processing

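No paired analysis was possible because the labels give no replicate numbers, and the groups share only 1 mouse number (F3-612 and P3-612, counted as different mice). None of the 10 clock genes had an adjusted p under 0.05 for FTY720 over placebo in edgeR, DESeq2, limma-voom, other scalings and filters, FPKM, fits with covariates, mice with digit 3 alone or any omission. The number with an unadjusted p under 0.05 was 1 (Per2) in the main fit. It was 0 with at least 10 counts in every mouse (407 of 15208 genes) and with log2(FPKM + 1) (523 of 17665 genes). With the digit as a covariate it was 1, Nr1d2 in place of Per2 (12.8% of all genes). It was 2 with digit and mouse number as covariates (1936 of 17665 genes) and 2 in the mice with digit 3 alone (7.27% of genes). When a mouse was left out it was 0 to 2, where 281 of 18001 to 984 of 17868 genes passed. For the digit, 3 to 6 members were called when a mouse was left out, where 2593 of 18058 to 6046 of 18064 genes were. DESeq2 called 6 members and 5716 of 17665 genes, and the FTY720 mice alone gave 4 members and 2913 of 15376 genes. For mouse number 9 over 6, the count at an unadjusted p under 0.05 was 1 with no filter on low counts (760 of 36165 genes). It was 0 to 1 in the omissions (132 of 17544 to 812 of 17509 genes). The 8 negative pairs of 16 became 4 with the digit means removed, 2 with the means of treatment by digit removed, 12 in the mice with digit 3 alone and 7 to 8 in the omissions. The digit call of Ciart was made without F1-622, F3-908 or P3-612 and with no filter on low counts, that of Arntl by DESeq2 and that of Npas2 without F1-622. Signs turned as follows, and the cause was not tested. With the digit as a term the treatment fold change of Dbp was -0.11 (also -0.11 with both covariates, -0.059 in mice with digit 3 alone) and that of Cry2 -0.00028. Over the omissions, treatment fold changes ran from -0.10 to 0.35 for Dbp, -0.11 to 0.044 for Npas2, -0.021 to 0.33 for Clock, -0.020 to 0.22 for Cry1 and -0.0011 to 0.20 for Cry2, and digit fold changes from -0.17 to 0.15 for Per2, -0.067 to 0.29 for Cry1 and -0.16 to 0.042 for Hlf (0.067 in FTY720 mice alone). The r of Arntl with Dbp was 0.43 with digit means removed, 0.37 with treatment by digit means removed and 0.31 in mice with digit 3 alone, and that of Arntl with Per1 0.11 and 0.22 in the first 2 of these.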
